A study of Mus musculus with 26 samples.

Results

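The sex difference of autosomal genes was examined in left ventricles of knockout mice. These were 7 female and 7 male mice with a cardiomyocyte deletion of Ppp2r2a (cKO), 14 of the 26 mice sequenced, and 14573 autosomal genes of the 15357 genes abundant enough to be tested. Mice were chosen by their labelled genotype and sex, and genes by their chromosome and by having enough counts to be tested. No difference between the sexes was used in the choice of these mice or of the genes tested. The gene lists below were chosen with earlier results of these data known. Ppp2r2a encodes B55α, which directs the phosphatase PP2A to its substrates. All cKO mice had the genotype aMHC-CreTg/0-Ppp2r2aL/L, in which the aMHC promoter drives Cre in heart muscle cells, so other cells of the ventricle keep the gene. The control mice (Ctrl), 6 females and 6 males, carried the floxed alleles without Cre. All mice were 12 to 16 weeks old and had received saline from an osmotic minipump for 2 weeks. The strain label is C57BL/6N, and the protocols describe a mixed C57BL6/N and FVB background. The labels name the libraries as separate samples without giving litters or cages, so the p-values measure the spread between these samples.

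Male and female hearts differ in more than their sex chromosomes. Androgens, estrogens and glucocorticoids act through receptors that bind DNA, and many of the genes that respond lie on autosomes. C7 is the complement component that joins C5b and C6 in the membrane attack complex. Hsd11b1 encodes the enzyme that regenerates active glucocorticoid inside cells. Ddx39b is an RNA helicase of splicing and of the TREX complex, which hands finished mRNA to the export machinery, and Fmc1 is an assembly factor of the mitochondrial ATP synthase.

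The labels and the tissue were checked first. Total counts (in units of 1e6 counts) were 14.4 to 21.59 in the cKO females and 17.37 to 25.45 in the cKO males. Xist, the RNA that silences an X chromosome in females, had 3277 counts or more in each cKO female and at most 2 in each cKO male. Ddx3y, on the Y chromosome, had at least 992 counts in each cKO male and at most 1 in each cKO female. Ppp2r2a was at 9.96 to 16.2 CPM (counts per 1e6 counts, scaled by library) in cKO females and at 11.8 to 16.2 CPM in cKO males, against 24.1 to 47.7 CPM in Ctrl mice. It did not differ between the cKO sexes by the test used here (log2 fold change -0.07, SE 0.137, edgeR adjusted p = 0.857). Ctrl males 3 and 6 had 24.95 and 24.1 CPM of Ppp2r2a and the other Ctrl males 41.87 to 47.73. The counts of calls that use the controls and the same-sign count are therefore also given without them. The other Ctrl values include them. The 10 cardiomyocyte markers summed to 72600 to 91800 CPM over the cKO mice, and 4 of the 8 atrial markers, Myl7, Sln, Bmp10 and Dhrs9, were too low to test.

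At an adjusted p under 0.05, 381 autosomal genes differed between the cKO sexes, 2.61% of those tested (edgeR quasi-likelihood test). Females had 200 of them higher (1.37% of those tested) and 181 lower (1.24%). Before adjustment, 2515 genes (17.3%) had a p under 0.05, where 729 are expected by chance. Most differences were small: the median absolute log2 fold change of the called genes was 0.27. Of the called genes, 85 had an absolute log2 fold change of 0.5 or more (34 higher and 51 lower in females), and 32 one of 1 or more (7 higher, 25 lower). In 107 of the 381 called genes every female lay on one side of every male (55 above, 52 below). Such a gap was present in 1.0% of all autosomal genes tested, 0.508% with females above and 0.494% with females below. The called genes lay on all 19 autosomes, from 1.74% of those tested on chromosome 13 to 4.58% on chromosome 15. The count depended on single mice: it was 139 without cKO female 4, 199 without cKO female 2, 171, 250, 211 and 198 without cKO males 1, 5, 6 and 7, and 512 at most, without cKO female 1. Without cKO male 2, 129 were higher, and without cKO male 4, 119 were lower. DESeq2 called 659 genes, all 381 among them. The edgeR fit of the cKO mice alone called 301, 258 of them among the 381.

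**Figure D1:**
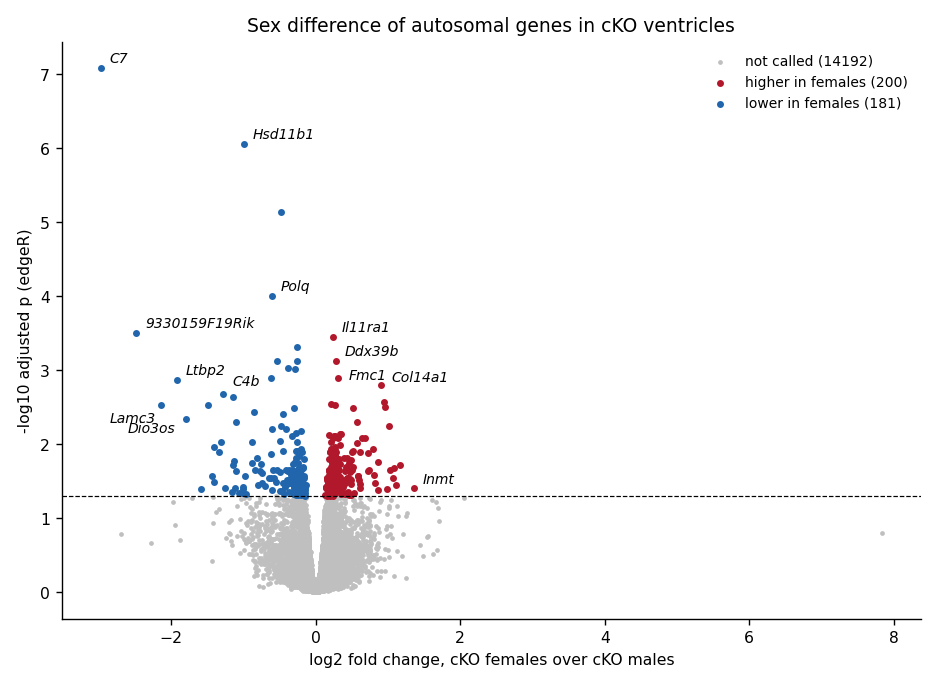
Each point is 1 of the 14573 autosomal genes, with the log2 fold change of cKO females over cKO males on the x axis and -log10 of the edgeR adjusted p on the y axis; the dashed line is an adjusted p of 0.05. C7 and Hsd11b1 lie highest on the left, where 181 genes are lower in females (blue), and the 200 genes higher in females (red) reach less far from 0.

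The promoters of the 4 genes the sex difference is first described by are shown for their steroid receptor half-sites. They are the 250 bases before the start of each gene, 5′ to 3′ on the gene's strand, from RefSeq on GRCm38.p6. Capitals mark AGAACA, the half-site of androgen and glucocorticoid receptors, and AGGTCA, that of estrogen receptors, searched on both strands (TGTTCT and TGACCT on the other).
C7, chr15:5063774-5064023, minus strand: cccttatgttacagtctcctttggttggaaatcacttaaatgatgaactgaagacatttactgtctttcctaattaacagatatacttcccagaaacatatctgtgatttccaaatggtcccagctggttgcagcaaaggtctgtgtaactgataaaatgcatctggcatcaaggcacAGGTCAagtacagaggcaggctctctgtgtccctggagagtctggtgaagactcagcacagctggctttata
Hsd11b1, chr1:193242361-193242610, minus strand: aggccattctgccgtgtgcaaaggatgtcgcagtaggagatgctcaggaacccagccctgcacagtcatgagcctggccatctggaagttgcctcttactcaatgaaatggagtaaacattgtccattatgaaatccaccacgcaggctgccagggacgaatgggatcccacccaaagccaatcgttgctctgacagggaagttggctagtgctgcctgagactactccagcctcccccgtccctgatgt
Ddx39b, chr17:35241496-35241745, plus strand: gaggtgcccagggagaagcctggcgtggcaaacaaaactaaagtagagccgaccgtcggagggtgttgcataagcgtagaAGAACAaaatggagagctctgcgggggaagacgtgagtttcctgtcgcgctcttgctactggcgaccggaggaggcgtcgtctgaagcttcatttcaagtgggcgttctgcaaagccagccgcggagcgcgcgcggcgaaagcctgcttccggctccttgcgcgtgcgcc
Fmc1, chr6:38534611-38534860, plus strand: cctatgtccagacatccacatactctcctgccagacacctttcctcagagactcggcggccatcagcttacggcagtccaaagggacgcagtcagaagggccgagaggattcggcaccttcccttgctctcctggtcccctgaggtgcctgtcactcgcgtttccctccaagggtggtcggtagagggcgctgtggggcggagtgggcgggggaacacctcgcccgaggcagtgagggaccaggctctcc
The C7 promoter holds 1 AGGTCA and the Ddx39b promoter 1 AGAACA, and these letters do not occur in the other windows. RefSeq promoters were matched for 148 of the 200 genes higher in females, 140 of the 181 lower ones and 10528 of the genes tested. AGAACA occurred in 8.11% of the higher, 8.57% of the lower and 10.6% of all tested promoters. AGGTCA occurred in 9.46%, 12.1% and 10.6% of these. Over all 25748 autosomal promoters in the RefSeq table the shares were 16.1% and 13.9%. A match is a description of the letters and not of binding.

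The smallest p-values belonged to C7 and Hsd11b1, genes of complement and of glucocorticoid metabolism. C7 was at 1.36, 3.15 and 5.54 CPM in cKO females (lowest, median and highest) and at 17.9, 23.7 and 39.0 CPM in cKO males. No female reached the lowest male, and the male level was 7.83 times the female level (log2 fold change -2.97, SE 0.264, edgeR adjusted p = 8.22e-08). Hsd11b1 was at 10.1, 11.6 and 14.8 CPM in females and at 21.5, 23.2 and 26.4 CPM in males. The groups lay apart here too, with males 1.99 times as high (log2 fold change -0.996, SE 0.108, edgeR adjusted p = 8.62e-07). Hsd11b1 overlaps Lamb3 on the opposite strand, and Lamb3 itself differed the other way without passing the test (log2 fold change 0.35, SE 0.115, edgeR adjusted p = 0.0968). C4b, the complement component that forms part of the classical C3 convertase, was at 6.86, 8.26 and 16.7 CPM in females and 17.7, 27.5 and 31.5 CPM in males. Females lay below all males (log2 fold change -1.28, SE 0.215, edgeR adjusted p = 0.00208), but the counting may have split its reads with the near-identical C4a, which was at 0.202 to 1.11 CPM over the cKO mice. C7 and C4b were the called genes among 20 complement genes tested (10%, against 2.61% of all autosomal genes tested). C7 was also named for the comparison beforehand. The 20 genes had a median log2 fold change of -0.10 against 0.01 over all autosomal genes tested. The C1q chains C1qa, C1qb and C1qc and the central component C3 did not pass, with log2 fold changes of -0.19, -0.13, -0.26 and -0.20. Of the 20 genes 14 had negative and 6 positive values. The highest was that of Cfd, complement factor D, which is also in the adipocyte list below. Cfd did not pass (log2 fold change 1.69, SE 0.511, edgeR adjusted p = 0.0715). DESeq2 and limma voom each called 1 complement gene higher in females.

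Among 30 steroid receptors and hormone-responsive genes tested, Hsd11b1 and Penk were lower and Mt1 higher in females. That was 10% of the list, against 2.61% of all autosomal genes tested. Penk, the precursor of enkephalin peptides, was at 4.42, 9.85 and 11.3 CPM in females and 12.8, 14.7 and 19.4 CPM in males, with no overlap (log2 fold change -0.74, SE 0.176, edgeR adjusted p = 0.0242). Mt1, a zinc-binding metallothionein that glucocorticoids induce, was at 130.0, 181 and 195 CPM in females and 83.5, 124 and 140 CPM in males, with overlap (log2 fold change 0.52, SE 0.11, edgeR adjusted p = 0.0124). The estrogen receptor Esr1, at 0.35 to 1.11 CPM, did not pass, nor did the glucocorticoid receptor Nr3c1 (log2 fold change -0.14, SE 0.0539, edgeR adjusted p = 0.155). Fkbp5, a glucocorticoid-induced chaperone, did not pass either (log2 fold change 0.48, SE 0.254, edgeR adjusted p = 0.34). The receptors Esr2 and Pgr were not abundant enough to be tested. The list's median was 0.03.

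**Figure D2:**
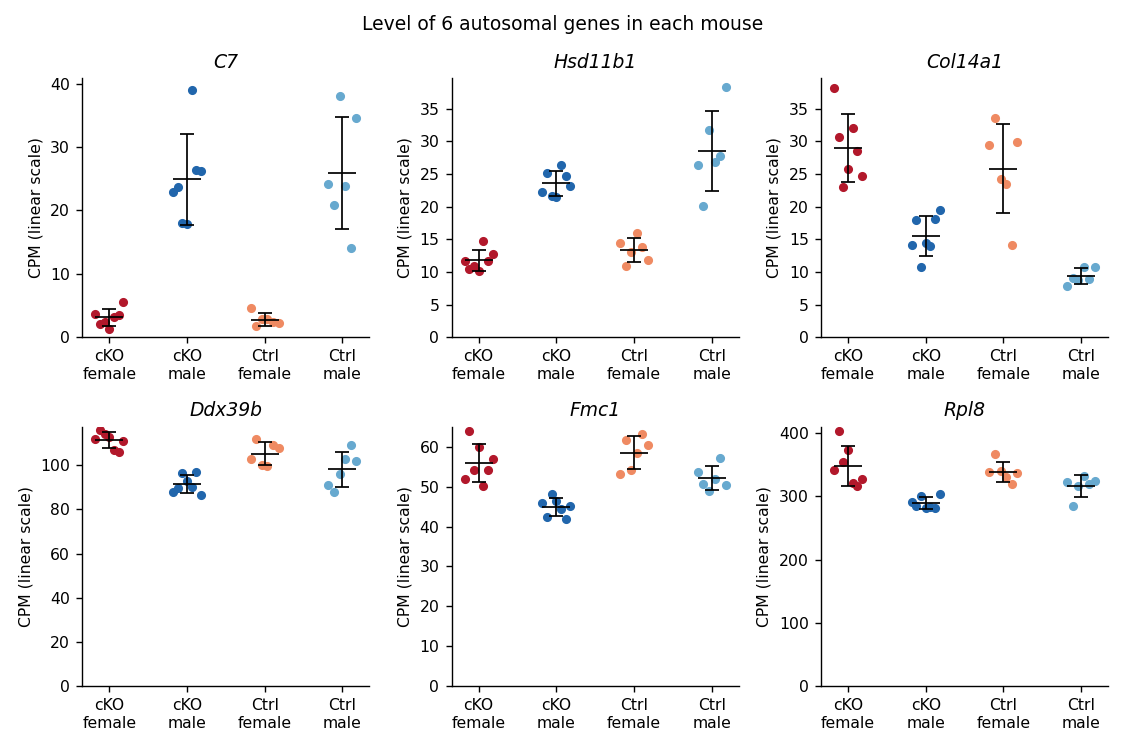
CPM on linear axes from 0 for 6 genes; each point is 1 mouse, horizontal bars are group means and whiskers 1 SD (7 cKO females, 7 cKO males, 6 Ctrl females, 6 Ctrl males). In each panel the cKO females and cKO males do not overlap; for C7 the highest cKO female is at 5.54 CPM and the lowest cKO male at 17.9 CPM, while for Ddx39b these gaps are narrow.

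Ddx39b and the called genes of the splicing list were higher in females. Ddx39b was at 106, 112 and 116 CPM in females and at 86.6, 90.2 and 96.9 CPM in males. Every female lay above every male, though the difference was small, with females 1.22 times as high (log2 fold change 0.28, SE 0.0451, edgeR adjusted p = 0.000739). Ddx39b was the 1 called gene of 20 in a list of mRNA export genes and DEAD-box partners, which was built around Ddx39b itself. The other 19 members were not called, and the median log2 fold change of the list was 0.04. The median log2 fold change of 48 core spliceosome and SR protein genes was 0.08, with 41 positive values. Of these 48, 6 were higher in females (12.5%, against 1.37% of all autosomal genes tested) and 0 lower. They were Snrpb, Snrpd2, Snrpd3 and Snrpe, of the Sm ring around spliceosomal snRNAs, the U1 protein gene Snrnp70, and Sf3b2, of the U2 particle that binds the branch point. Snrpe was at 19.1, 21.7 and 24.5 CPM in females and 17.2, 18.2 and 19 CPM in males, with no overlap (log2 fold change 0.22, SE 0.0529, edgeR adjusted p = 0.0219). The other 5 had log2 fold changes of 0.13 to 0.18. Of 27 alternatives, Sf3b2 kept its call in 7, Snrnp70 in 8 and Snrpd3 in 9. Snrpb, Snrpe and Snrpd2 kept theirs in 26, 24 and 22. A correction for length and GC content left 4 genes of the list called, the same with the replicate block 1, and DESeq2 called 9. With each mouse left out, 2 to 7 genes of the list were called (2 without cKO male 1, cKO female 2 or cKO female 4), with medians of 0.05 to 0.10. Hnrnpl, a splicing regulator outside the list, was at 176, 187 and 191 CPM in females and 153, 159 and 169 CPM in males, again apart (log2 fold change 0.22, SE 0.0388, edgeR adjusted p = 0.00286).

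The called cytosolic ribosomal protein genes were higher in females. Of 78 tested, 21 (26.9%, against 1.37% of all autosomal genes tested) were called higher in cKO females and 0 lower. Of the 78, 77 had positive values, and the median log2 fold change was 0.22 (0.01 over all autosomal genes tested). Summed over the list, females had 15500 to 21500 CPM and males 14600 to 15800 CPM. Rpl8, of the large subunit, was at 317, 341 and 404 CPM in females and 281, 285 and 303 CPM in males, with no overlap (log2 fold change 0.27, SE 0.0486, edgeR adjusted p = 0.00293). Rps21, of the small subunit, had the largest difference among the called members, 0.39 (SE 0.0867, edgeR adjusted p = 0.0152), but its groups overlapped, at 103 to 184 CPM in females and 95.9 to 113 CPM in males. Rpl14, Rpl36, Rplp0 and Rplp1, the last 2 of the ribosomal stalk, had log2 fold changes of 0.22 to 0.31. With each mouse left out, the number called ran from 6 (without cKO female 2 or cKO female 4) to 41, while the median stayed between 0.16 and 0.25. Many of these genes have processed pseudogenes, so their counts are uncertain where reads were split.

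The called nuclear genes of mitochondrial energy supply were also higher in females. Fmc1 was at 50.1, 54.3 and 64.0 CPM in females and at 41.9, 45.3 and 48.3 CPM in males. All females lay above all males, at 1.24 times the male level (log2 fold change 0.31, SE 0.0528, edgeR adjusted p = 0.00126). Of 23 ATP synthase genes, 5 were higher, Fmc1 and the subunit genes Atp5e, Atp5o, Atp5g2 and Atp5k, and the median was 0.14. Fmc1 was also named for the comparison beforehand. For Atp5e the levels were 327, 381 and 459 CPM against 281, 313 and 330 CPM, with a slight overlap (log2 fold change 0.31, SE 0.0632, edgeR adjusted p = 0.00821).

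Complex I, which oxidises NADH, had 5 of 35 subunit genes higher (Ndufa2, Ndufa13, Ndufb7, Ndufb10 and Ndufs6), with log2 fold changes of 0.17 to 0.22 and a list median of 0.13. Complexes II, III and IV had 9 of 27 higher (33.3%), with a median of 0.15: Uqcrh of complex III and 8 subunits of cytochrome c oxidase. Of these, Cox7a2 was at 248, 270 and 322 CPM in females and 209, 228 and 244 CPM in males, with no overlap (log2 fold change 0.27, SE 0.0587, edgeR adjusted p = 0.0126). Fatty acid uptake and oxidation had 5 of 35 higher and a median of 0.15. Acaa2, the last thiolase step of the beta-oxidation spiral, was at 593, 619 and 709 CPM in females and 467, 533 and 574 CPM in males, apart (log2 fold change 0.33, SE 0.0653, edgeR adjusted p = 0.00727). Eci1, Etfb and Acot2 were among the others called. Mitochondrial ribosomal proteins had 2 of 78 higher, Mrpl23 and Mrpl48, with a median of 0.04. That was 2.56% of the list, against 2.61% of all autosomal genes tested. Complex I and fatty acid oxidation had 14.3% each and ATP synthase 21.7%. No gene of these 5 lists was called lower in females by the main edgeR test. DESeq2, the surrogate variable and the length and GC correction each called 1 mitochondrial ribosomal gene lower. With each mouse left out, 3 to 8 ATP synthase genes were called, 0 to 9 of complex I (0 without cKO male 1 or cKO female 2), 3 to 10 of complexes II to IV (3 without cKO male 1, cKO female 2 or cKO female 4) and 2 to 8 of fatty acid oxidation (2 without cKO male 7). With each mouse left out the medians of these 4 lists stayed between 0.10 and 0.17.

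Depth, the mitochondrially encoded share and transcript length moved with these small differences. The cKO females had fewer counts, with a mean difference of -3.93 (in units of 1e6 counts, exact two-sided permutation p = 0.0274, adjusted over 4 such tests p = 0.0548), and mitochondrially encoded genes took a mean of 16.73% of their counts against 18.3% in males, which is the opposite direction to the nuclear mitochondrial genes. Genes higher in females had short transcripts, with a median length of 1810 bases, those lower had long ones (4130 bases), and all autosomal genes tested had 3190. With the genes in 10 bins by length, 3.91% of the shortest bin were called higher and 0.343% lower, and in the longest bin 0.48% and 2.33%. The median log2 fold change ran from 0.09 in the shortest bin to -0.04 in the longest in cKO, and from 0.05 to 0.01 in Ctrl. A correction of each library for length and GC content left 294 genes called, 244 of them among the 381, with 14 ribosomal protein, 1 complex I, 6 complex II to IV, 3 ATP synthase and 4 fatty acid genes. The medians of these lists after the correction were 0.17, 0.10, 0.07, 0.10 and 0.14, against 0.22, 0.13, 0.15, 0.14 and 0.15 before it, and that of complexes II to IV fell most. With all libraries thinned instead to the same total, 297 genes were called, with 20, 4, 8, 4 and 5 genes of these lists. The main test called 21, 5, 9, 5 and 5 of them.

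**Figure D3:**
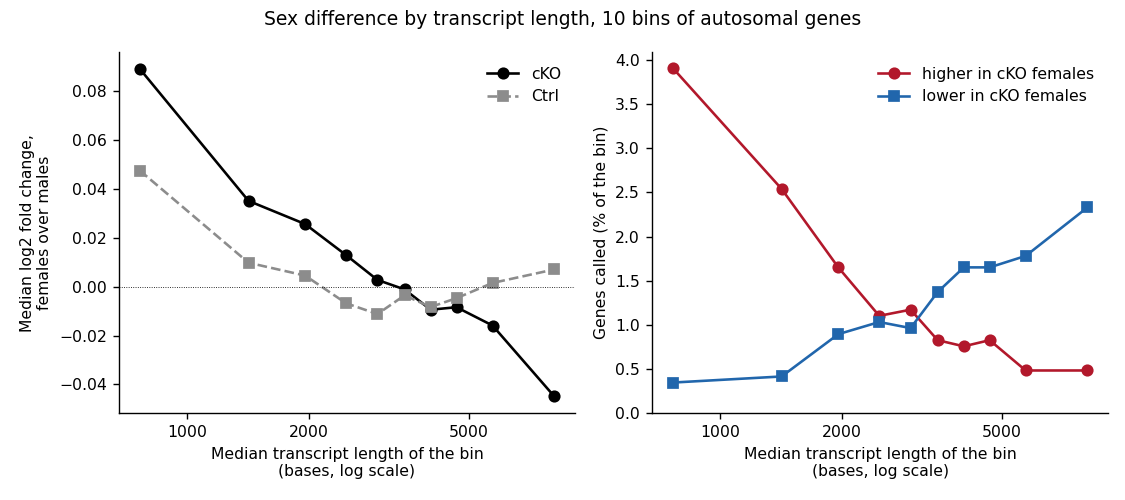
Autosomal genes in 10 bins of equal size by transcript length (x axis, median length of the bin, log scale). The left panel gives the median log2 fold change of females over males in cKO and Ctrl, and the right panel the percent of each bin called higher or lower in cKO females, which runs from 3.91% to 0.48% for higher genes and from 0.343% to 2.33% for lower genes.

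Called matrix genes were mostly lower in females. Of 47 matrix and remodelling genes other than collagens, 6 were lower in cKO females and 0 higher, with a median log2 fold change of -0.14. The lower genes were 12.8% of the list, against 1.24% of all autosomal genes tested. Ltbp2, which binds fibrillin microfibrils, was at 1.24, 2.02 and 3.69 CPM in females and 3.53, 10.9 and 14.4 CPM in males. The groups overlapped slightly (log2 fold change -1.92, SE 0.315, edgeR adjusted p = 0.00135). Loxl1 and Lox, which crosslink elastin and collagen, had log2 fold changes of -0.53 and -0.74, the microfibril gene Fbn1 -0.55, the elastic fibre gene Fbln2 -0.43 and the matricellular gene Ccn5 -1.01. Loxl1 was at 28.4, 30.5 and 43.7 CPM in females and 46.1, 49.6 and 58.8 CPM in males, with no overlap. With each mouse left out, 1 (without cKO female 4) to 10 genes of the list were called and the median lay between -0.17 and -0.13.

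Of 23 collagens, 2 were lower and 1 higher in females, 3 had positive values, and the median was -0.23. The called collagens were 13% of the list, against 2.61% of all autosomal genes tested. Col4a4, a basement membrane chain, was at 9.34, 11.9 and 12.6 CPM in females and 13.8, 15.8 and 20.1 CPM in males, apart (log2 fold change -0.50, SE 0.102, edgeR adjusted p = 0.009). Col1a2, of fibrillar type I collagen, was lower with overlapping groups (log2 fold change -0.40, SE 0.0992, edgeR adjusted p = 0.0307). Col14a1, a fibril-associated collagen, went the other way. It was at 23, 28.5 and 38.2 CPM in females and 10.8, 14.4 and 19.5 CPM in males, so that all females lay above all males (log2 fold change 0.90, SE 0.15, edgeR adjusted p = 0.00159). With each mouse left out, 1 to 6 collagens were called lower and the median lay between -0.34 and -0.20. In bulk tissue, fewer cells of a type and less RNA per cell cannot be told apart.

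The cell type markers were read beside these genes. The 14 fibroblast markers summed to 2480 to 3310 CPM in females and 2610 to 3170 CPM in males, 1 was called lower (Col1a2, also a collagen of the list above, with its call kept in 18 of 27 alternatives), and their median log2 fold change was -0.17. At an unadjusted p under 0.05 there were 9 of the 14: Col1a1, Col1a2, Col3a1, Cilp, Postn and Meox1 with negative and Lum, Gsn and Pi16 with positive values. DESeq2 and limma voom each called 4 fibroblast markers lower. Macrophage markers had a median of -0.21 over 13 genes, with sums of 270 to 427 CPM in females and 328 to 515 CPM in males. Endothelial, smooth muscle, lymphocyte, erythroid, Schwann and mesothelial markers had medians of 0.03, 0.05, -0.10, -0.02, 0.15 and 0.10. Adipocyte markers had 5 of 7 positive, a median of 0.75 and sums of 20.2 to 42.7 CPM in females against 17.8 to 34.5 CPM in males. The lists from macrophage to adipocyte had no gene called by edgeR, and at an unadjusted p under 0.05 they had 2 endothelial, 1 smooth muscle, 1 macrophage and 3 adipocyte genes, of which DESeq2 called 1. Cardiomyocyte markers had 2 of 10 higher and 0 lower by the main test. The 2 were Myl2 and Tnni3, which are also in the sarcomere list below. After the length and GC correction 2 markers were called higher and 1 lower. The part of any cell type in the matrix differences was not tested.

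Few contractile genes were called. Of 30 sarcomere and Z-disc genes, Myl2 and Tnni3 were higher, with a median over the list of 0.03. That was 6.67% of the list, against 2.61% of all autosomal genes tested. Without cKO male 6 or cKO female 2 or 4, 1 was called. After the length and GC correction 2 genes of the list were called higher and 1 lower. Tnni3, cardiac troponin I, was at 4190, 4680 and 5370 CPM in females and 3740, 3990 and 4160 CPM in males, apart (log2 fold change 0.24, SE 0.0489, edgeR adjusted p = 0.00821). Myl2, the ventricular regulatory light chain, was higher as well (log2 fold change 0.26, SE 0.0618, edgeR adjusted p = 0.0231). Xirp2, an actin-binding protein of the intercalated disc, was lower among 15 fetal and stress genes, at 522, 581 and 654 CPM in females and 649, 797 and 956 CPM in males (log2 fold change -0.46, SE 0.0848, edgeR adjusted p = 0.00387).

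Other lists held few or no called genes. The clock, PP2A and IL-6 family lists had 10.5%, 8.7% and 7.14% called, against 2.61% of all autosomal genes tested. In calcium handling and ion channels, 1 of 39 was lower (2.56% of the list, against 2.61% of all autosomal genes tested) and 0 were higher. Of 19 clock genes, Cry1 was higher (0.47) and Clock lower (-0.27), and neither was called without cKO female 2 or 4 or cKO male 1, 3 or 4. Of 23 PP2A subunits and regulators, Strn3 (-0.19), a scaffold of the STRIPAK complex, and Arpp19 (-0.14), an inhibitor of PP2A with B55, were lower, and 0 were called after the length and GC correction or without cKO female 4 or cKO male 4, 6 or 7. Among 40 chromatin genes the methyltransferase Kmt2b was higher (0.15), which is 2.5% of the list against 2.61% of all genes, and its call was kept in 6 of 27 alternatives. Among 4 atrial markers Stard10 was higher (0.40, kept in 19 of 27), and among 14 genes of the IL-6 family Il11ra1. The edgeR test called 0 of 22 immediate-early genes (median 0.23, 21 positive, 4 at an unadjusted p under 0.05), 0 of 24 heat shock genes (9 unadjusted, 2 by DESeq2), 0 of 35 proteasome genes (3, and 2 by DESeq2), 0 of 28 interferon-stimulated genes (1) and 0 of 23 MHC genes (0), and DESeq2 called 0 of the first and the last 2 of these lists.

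**Figure D4:**
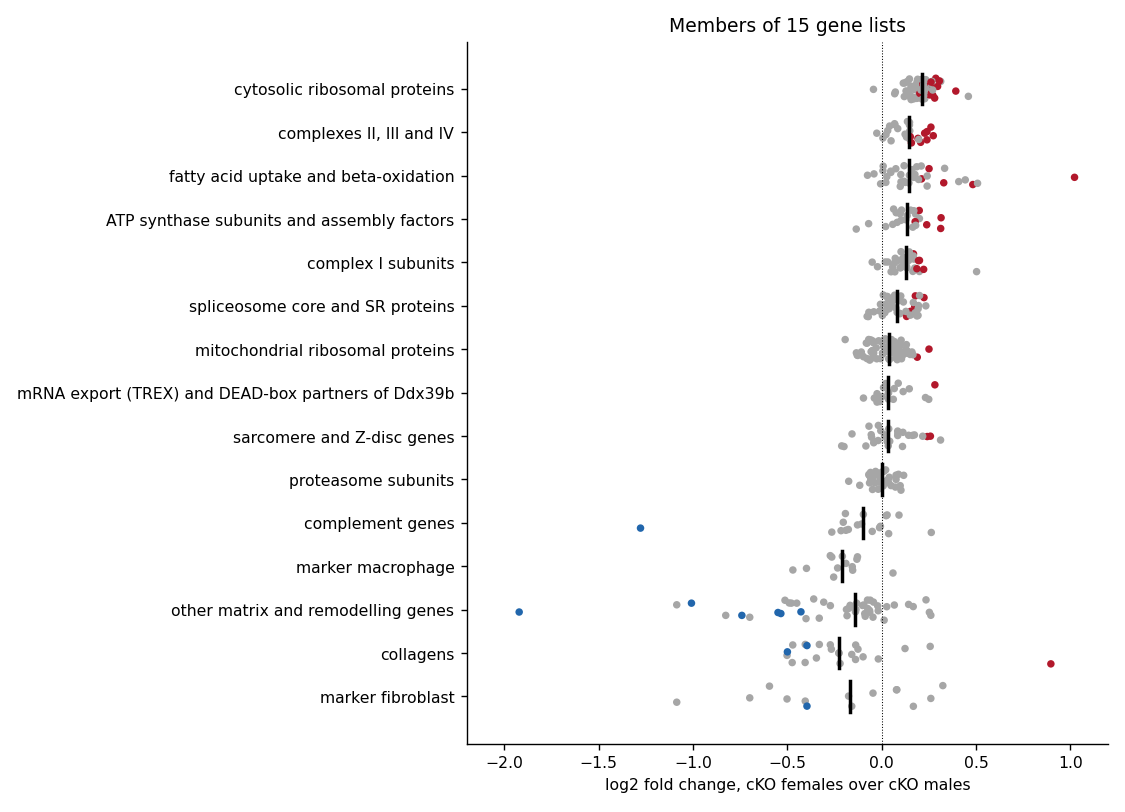
Log2 fold change of cKO females over cKO males (x axis) for the tested members of 15 gene lists; each point is a gene, red called higher and blue called lower in females, grey not called, and black bars are list medians. Red points gather in the ribosomal and respiratory lists and blue points in the matrix list; 2 members lie outside the axis, which runs from -2.2 to 1.2.

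The other genes of smallest p came from many processes. Il11ra1, the interleukin-11 receptor, led the higher genes, at 62.1, 66.3 and 68.0 CPM in females and 53.0, 55.3 and 60.0 CPM in males (log2 fold change 0.24, SE 0.0371, edgeR adjusted p = 0.000356). The groups did not overlap, but Il11ra1 shares a strand with Galt, which was also higher (0.18), and has near-identical copies, so its counts are uncertain. Thy1, a surface glycoprotein of fibroblasts and neurons, was at 15.5, 17.0 and 19.8 CPM in females and 11.3, 11.9 and 12.8 CPM in males, apart (log2 fold change 0.52, SE 0.0952, edgeR adjusted p = 0.0032). Ifitm1, an interferon-induced membrane protein, Negr1, a neural adhesion molecule, and Impa2, an inositol monophosphatase, had log2 fold changes of 0.94, 0.96 and 0.56 with overlapping groups.

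Among the lower genes, Polq, the polymerase of microhomology end joining, was at 9.09, 11.7 and 12.4 CPM in females and 14, 17.4 and 20.4 CPM in males, with no overlap (log2 fold change -0.61, SE 0.0856, edgeR adjusted p = 9.8e-05). Setd3, which methylates actin, the protease inhibitor gene Serpine2, the RNA-binding Stau2, the kinase gene Wnk1 and the dystrophin relative Utrn had log2 fold changes of -0.27, -0.54, -0.26, -0.39 and -0.28, each with all females below all males.

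The genes of largest difference were mostly of low level. The lower ones besides C7 and Ltbp2 were 9330159F19Rik (log2 fold change -2.48), the laminin chain Lamc3 (-2.13) and Dio3os (-1.79), an RNA transcribed opposite the deiodinase gene Dio3. The higher ones were Inmt, a methyltransferase of small amines (1.35), Dact2 (1.16), the acyl-CoA thioesterase Acot1 (1.11), the peptidase Trhde (1.08) and the protease Htra4 (1.07). Inmt was at 1.33, 6.08 and 9.57 CPM in females and 1.2, 2.04 and 4.03 CPM in males, and its call was kept in 7 of 26 alternative analyses. Acot1 has the close copy Acot2, which was also higher (0.48), so their counts are uncertain.

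The 3 autosomal genes whose log2 CPM followed C7 most closely over the 14 cKO mice were Hsd11b1, Plaa and Ace. The sexes form separate clusters, so the likeness is given within each sex as a description. Pearson's r with C7 was 0.658 for Hsd11b1, 0.729 for Plaa and 0.641 for Ace over the 7 females, and 0.869, 0.535 and 0.697 over the 7 males. Ace, the angiotensin-converting enzyme, was at 60.9, 80.1 and 84.6 CPM in females and 94.3, 122 and 134 CPM in males, with no overlap (log2 fold change -0.62, SE 0.103, edgeR adjusted p = 0.00126). Plaa, a partner of the ubiquitin-dependent segregase VCP, had a log2 fold change of -0.17.

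The Ctrl mice, which share no library with the cKO mice, give the sex difference without the deletion. In Ctrl, 83 autosomal genes were called (0.570%), 37 higher and 46 lower in females. Both genotypes called 33 genes, all in the same direction, which is 8.66% of the cKO calls and 39.8% of the Ctrl calls. Of the 381 cKO calls, 361 had the same sign in Ctrl (94.8%, against 66.1% of all autosomal genes), and the median ratio of the Ctrl to the cKO difference was 0.574. Over the 83 Ctrl calls the median ratio of the cKO to the Ctrl difference was 0.612. Without Ctrl males 3 and 6, 26 genes were called in Ctrl, 20 of them among the cKO calls, and 352 of the cKO calls had the same sign.

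C7, Hsd11b1, Polq and Col14a1 were called in both genotypes. C7 was at 1.71, 2.62 and 4.58 CPM in Ctrl females and 14, 24 and 38 CPM in Ctrl males, again without overlap (log2 fold change -3.22, SE 0.287, edgeR adjusted p = 9.46e-08). The Ctrl log2 fold change of Hsd11b1 was -1.09 and that of Col14a1 1.46. Among the Ctrl males, males 3 and 6 had the highest C7 (38.0 and 34.5 CPM) and Hsd11b1 (31.8 and 38.3 CPM). Ddx39b and Fmc1 were not called in Ctrl, where their log2 fold changes were 0.10 (edgeR adjusted p = 0.396) and 0.17 (edgeR adjusted p = 0.183), and the ribosomal protein list had a Ctrl median of 0.06 with 0 called genes. The difference between the genotypes was tested directly and passed for 0 autosomal genes (edgeR, smallest adjusted p = 0.707; 576 genes, or 3.95%, at an unadjusted p under 0.05). DESeq2 also called 0, with 595 unadjusted, and so did limma voom, with 745. In the edgeR test of this difference the unadjusted p was 0.0111 for Ddx39b, 0.0238 for Rpl8 and 0.067 for Fmc1, each with the larger value in cKO. It was 0.017 for Col14a1, with the larger value in Ctrl. For C7, Hsd11b1 and Polq it was 0.524, 0.543 and 0.46. Ddx39b, Rpl8 and Fmc1 are among the genes of smallest p in cKO, and that choice favours a larger value in cKO than in Ctrl.

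The 5 autosomal genes with the smallest p for that difference were Gm6517, Lbhd1, Svopl, Furin and Rasal2. Svopl, a transporter-like gene, was at 0.266 to 0.492 CPM in cKO females and 0.806 to 1.32 CPM in cKO males, with no overlap. Its log2 fold change was -1.31 in cKO (edgeR adjusted p = 0.00931) and 0.26 in Ctrl, with an unadjusted p of 0.000457 for the difference. Furin, a proprotein convertase, had log2 fold changes of -0.04 in cKO and 0.28 in Ctrl. Inmt, at 1.35 in cKO and -0.51 in Ctrl, had an unadjusted p of 0.00111. None of these passed after adjustment over all genes.

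**Figure D5:**
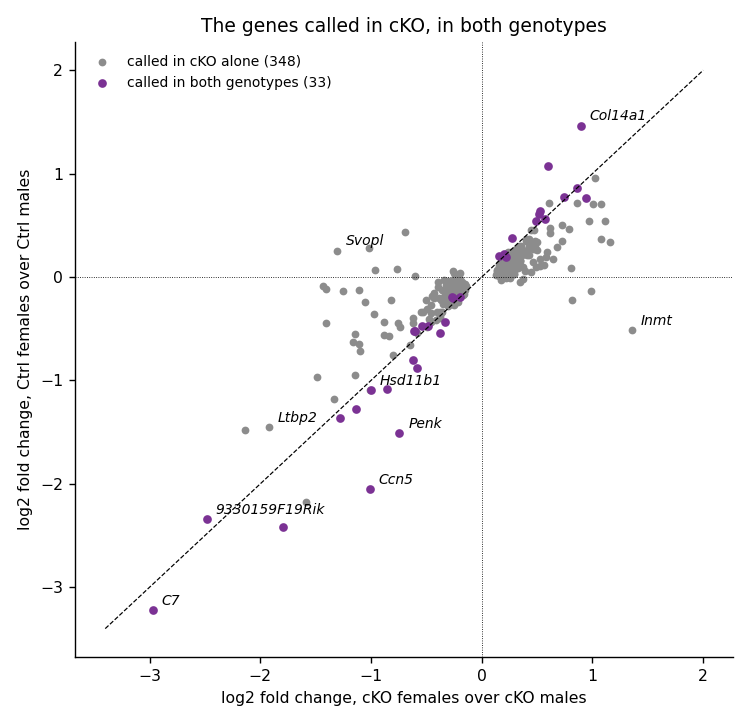
Log2 fold change of females over males in cKO (x axis) and in Ctrl (y axis) for the 381 genes called in cKO; purple points are the 33 genes called in both genotypes, grey points the other 348, and the dashed line marks equal values. Most points lie in the quadrants of equal sign, 361 in all, with C7 at the lower left end and Inmt and Svopl among the 20 exceptions.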

How the data were processed

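The deposited matrix holds raw, whole-number counts of 26 libraries by gene. Per the submitters' processing notes, FastQC 0.74, cutadapt 4.6, STAR 2.7.11a, HTSeq and GRCm39 were used; the annotation release and whether counting used strand are not given in the sources used here. Per the labels, libraries were stranded and poly-A selected from RNA of integrity number 7.7 or more.

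GENCODE M21 gave each gene ID its chromosome, longest transcript and GC content; 263 tested genes without a match were not counted as autosomal. In edgeR 4.0.16 (R 4.3.3), genes kept by filterByExpr (minimum count 10) were scaled by TMM and fitted with a mean for each of 4 groups over 26 libraries, using robust quasi-likelihood F tests. Benjamini-Hochberg adjustment ran over all 15357 genes, and called genes had an adjusted p under 0.05. CPM used TMM-scaled totals and log2 CPM a prior count of 2. No pair of libraries within the cKO groups agreed within sampling noise (chi-square per degree of freedom 7.19 to 29.2 over 42 pairs).

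Named genes are the 10 higher and 10 lower of smallest p, the 5 higher and 5 lower of largest fold change, Ddx39b, Fmc1 and C7, called genes of 36 lists, the 5 genes of smallest interaction p and the 3 most like C7; some genes this rule selects are not reported here. Lamb3, Galt, C4a, the C1q genes, C3, Cfd, Esr1, Nr3c1, Fkbp5 and the uncalled fibroblast markers were added after their values were seen. The members and lists were chosen with earlier results of these data known. Alternatives used DESeq2 1.42.0, limma 3.58.1, sva 3.50.0 (1 surrogate variable), other filters (none, or a mean of at least 5 CPM), thinned libraries, a spline correction for length and GC content (4 degrees of freedom each), the replicate number as a block, and each cKO mouse left out. Omission of Ctrl males 3 and 6 was chosen after seeing the data. The methods were tested on simulated data, where DESeq2 made more false calls than edgeR. The test of the genotype difference missed most of the smaller changes, and the main edgeR test in cKO missed most of the smallest.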

Additional observations from a re-analysis of the deposited data

Results flagged for a closer look

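Among 174 tests of the named genes and library measures within the cKO groups, 12 had 1 mouse far from the other 6; chance gives about 1 in 20, or 8.7. Male 5 had the highest C7, 39.0 CPM with the next male at 26.4 CPM, and the lowest male still lay above every female. Male 1 had the highest Lamc3 (3.3 CPM, next 1.2), the lowest Cox6c (636 CPM, next 702) and the lowest mitochondrially encoded share (16.6%, next 18.02%). Male 4 had the highest Snrpd3, at 41.8 CPM.

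Female 2, the shallowest library, had the highest Rplp1 (392 CPM, next 318) and the lowest Strn3 (70.0 CPM). Female 1 had the lowest Penk (4.42 CPM, next 8.75) and the lowest Cry1 (11.9 CPM). Female 5 had the highest Ccn5 (9.19 CPM, next 5.06) and the lowest Ndufb10 (436 CPM). Female 7 had the highest Kmt2b, at 45.2 CPM. What sets these mice apart was not tested.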

How the results depend on the processing

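The number of genes called in cKO (381, with 200 higher and 181 lower in females) was 53 (22 and 31) at an adjusted p under 0.01, 659 (335 and 324) with DESeq2, 626 (312 and 314) with limma voom, 216 (92 higher) without a filter, and 189 (95 and 94) with the length and GC correction together with the replicate block. With each cKO mouse left out it ranged from 139 to 512, with 70 to 261 higher and 69 to 251 lower. The replicate block alone gave 327, of which 289 were among the 381. The Ctrl mice enter the cKO test through the shared estimate of the spread. Without Ctrl males 3 and 6 the cKO count was 328 (161 and 167), 319 of them among the 381. With only cKO mice in the fit it was 301 (145 and 156), 258 of them among the 381. Same-numbered mice had a mean correlation of 0.0339 in their deviations, against -0.00557 for other pairs. The pair numbered 7, at 0.151, was the 1 of 7 pairs above 0.1, and 3 samples correlated best with their own number. Whether the numbers mark a shared origin was not tested. The Ctrl count (83) was 23 at an adjusted p under 0.01, 234 with DESeq2, 149 with 1 surrogate variable and 26 without Ctrl males 3 and 6. The test of the genotype difference called 0 genes in each alternative that could give it; the fit of cKO mice alone could not. Of the 86 genes selected to be named none changed sign in any alternative, and C7, Hsd11b1, Polq, Ddx39b, Fmc1 and Col14a1 were called in all 27. Without cKO female 4, 35 of the 86 lost their call, and 35 did with the length and GC correction together with the replicate block. Without cKO male 1 or without a filter, 31 did. Genes near 1 CPM rest on few counts per library, and the shallower female libraries limit them most. Where the alternatives changed a count, the cause was not tested.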

Other observations

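Outside the lists, several called genes have related roles; they were chosen after their values were seen, and no test of a theme was made. Nek2 and Cep55, of the centrosome and midbody, Ccnb1, cyclin B1, Ckap2, of the mitotic spindle, and Prr11 were lower in cKO females. Their log2 fold changes were -1.43, -1.40, -1.25, -1.11 and -1.02 (edgeR adjusted p = 0.0271, 0.0321, 0.0385, 0.0231 and 0.0461). In Ctrl mice the values were -0.09, -0.12, -0.14, -0.12 and 0.28, and none was called. Their levels were low: Ckap2, the highest, had a median of 0.655 CPM in cKO females and 1.61 CPM in cKO males, and Nek2 and Prr11 had no overlap. The unadjusted p of the difference between genotypes was 0.00318 for Prr11 and 0.0141 for Nek2, and neither passed after adjustment.

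Ifi204, Ifi205 and Ifi211, members of an interferon-inducible family of DNA sensors on chromosome 1, were also lower in cKO females. Ifi211 was at 0.989, 1.86 and 2.18 CPM in females and 3.08, 3.8 and 5.37 CPM in males, with no overlap (log2 fold change -1.14, SE 0.202, edgeR adjusted p = 0.00231). Ifi204 and Ifi205 had log2 fold changes of -0.82 and -0.97. These genes are close copies of each other, so the counting may have split their reads, and the list of interferon-stimulated genes had 0 calls.

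The nuclear import receptors Kpna3, Kpna4 and Ipo7 were lower in cKO females with no overlap, at log2 fold changes of -0.27, -0.33 and -0.20 (edgeR adjusted p = 0.0152, 0.00774 and 0.032). Kpna4 was at 65.1 to 78.2 CPM in females and 86.3 to 96.0 CPM in males. The deubiquitinase genes Usp14, Usp15, Usp16, Usp24 and Usp47 were lower as well, by -0.20, -0.17, -0.21, -0.22 and -0.21, while Usp54 was higher (0.28). Mgp, an inhibitor of calcification, and Gsta3, a glutathione transferase, were higher in females of both genotypes, with log2 fold changes of 0.57 and 0.86 in cKO and 0.57 and 0.86 in Ctrl. Mhrt, a long noncoding RNA from the Myh7 locus, was at 252, 259 and 265 CPM in cKO females and 143, 193 and 226 CPM in cKO males (log2 fold change 0.43, SE 0.0952, edgeR adjusted p = 0.0152). It is antisense to Myh7, so its counts are uncertain without strand.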
